A study of Homo sapiens with 12 samples.

Results

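The genes of DNA end resection together with the MRE11 complex comprised 10 members of the 61163 genes counted in each library: MRE11, RAD50, NBN, RBBP8, BLM, EXO1, DNA2, ATM, ATR and BRCA1. They were taken by gene symbol, since hnRNP UL proteins are recruited to DNA breaks by the MRE11-RAD50-NBN complex and aid resection, and each of the 10 symbols had a row in both count tables. RNA was sequenced from HEK293T cells, an immortalised human embryonic kidney line, that were either unmodified (HEK WT) or carried a knockout of HNRNPUL1 made with the CRISPR-Cas9 system (HEK UL1 KO). Each genotype was separated into a nucleolar fraction (NO) and a cytoplasmic-nuclear fraction (CN), which gave 4 groups of 3 libraries and 12 libraries in all. No cells in these groups received a DNA damaging agent, and none of the libraries was depleted of rRNA. The sources used here do not say whether the knockout line was a single clone or whether replicates came from separate cultures, so p-values measure the spread between these libraries, and a difference between lines that is not due to HNRNPUL1 cannot be told apart from the genotype.

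Resection turns the end of a DNA double-strand break into a single-stranded 3' overhang, the step that commits a break to repair by homologous recombination. The MRE11 complex senses the end and, together with CtIP (encoded by RBBP8), makes the first incision, after which EXO1, or DNA2 with the BLM helicase, extends the overhang. ATM is the kinase activated by the MRE11 complex at the break, ATR is the kinase activated on the resected strand once it is coated by replication protein A (RPA), and BRCA1 promotes resection and the strand exchange that follows it. Several of these genes are transcribed more in dividing cells than in resting ones.

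The sequence before the start site is printed for the 4 members whose 250-base upstream window held at most 30 bases of the gene's own annotated exons, so that members that fell in the knockout (ATR and RBBP8) can be set beside one at the edge of the test (ATM) and one that was not called (BLM). RefSeq promoter windows on GRCh38.p14 were found for 8 of the 10 members, and NBN and DNA2 have no entry. Each line runs 5' to 3' on the gene's strand and ends at the base before the start site of the gene's reference transcript (MANE Select). Capitals mark the motifs searched on both strands.
ATR (chr3:142578734-142578983, minus strand): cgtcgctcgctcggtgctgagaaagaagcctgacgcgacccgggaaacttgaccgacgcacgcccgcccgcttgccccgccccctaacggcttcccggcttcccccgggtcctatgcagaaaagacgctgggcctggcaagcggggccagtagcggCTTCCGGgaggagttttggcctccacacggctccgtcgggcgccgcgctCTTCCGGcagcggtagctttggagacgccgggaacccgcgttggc
RBBP8 (chr18:22933078-22933327, plus strand): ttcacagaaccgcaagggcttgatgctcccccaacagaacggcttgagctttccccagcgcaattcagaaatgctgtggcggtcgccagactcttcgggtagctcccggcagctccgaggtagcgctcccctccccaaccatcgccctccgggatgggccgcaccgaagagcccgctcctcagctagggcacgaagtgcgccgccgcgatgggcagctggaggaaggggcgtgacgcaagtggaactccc
ATM (chr11:108222817-108223066, plus strand): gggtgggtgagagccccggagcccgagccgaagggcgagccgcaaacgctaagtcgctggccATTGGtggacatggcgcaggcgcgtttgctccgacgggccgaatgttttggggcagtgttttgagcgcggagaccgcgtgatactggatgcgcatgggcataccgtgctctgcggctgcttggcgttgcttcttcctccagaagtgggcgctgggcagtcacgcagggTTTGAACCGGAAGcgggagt
BLM (chr15:90717096-90717345, plus strand): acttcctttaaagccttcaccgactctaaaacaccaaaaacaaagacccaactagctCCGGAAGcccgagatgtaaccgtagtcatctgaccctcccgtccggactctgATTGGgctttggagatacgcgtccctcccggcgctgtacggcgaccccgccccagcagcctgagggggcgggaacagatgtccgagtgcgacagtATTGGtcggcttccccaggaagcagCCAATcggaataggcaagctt
The motifs were the CCAAT box (CCAAT), the core recognised by ETS factors (CCGGAAG), the E2F core (TTNNCGCG), the cAMP response core (TGACGT) and the cell cycle homology region (TTTGAA). The ETS core was present in 5 of the 8 members' windows, against 8.52% of the 35116 windows in the RefSeq table, and the CCAAT box in 4 of 8, against 32.0%. ATR held the ETS core on its reverse strand in 2 places, whereas BLM held 3 copies of the CCAAT box and 1 ETS core. ATM held 1 copy each of the CCAAT box, the cell cycle homology region and the ETS core, the latter pair side by side with no shared base. RBBP8 held none of these letters in its window, which lies inside the gene span given below. The sequence before the start of that span was not searched. The E2F core occurred in 2 of 8 windows against 5.77% of all windows, the cAMP response core in 2 of 8 against 7.10% and the cell cycle homology region in 1 of 8 against 13.3%. A match in these letters describes the sequence and does not show that a factor binds it.

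Library totals ranged from 54349399 to 104040073 counts in CN and from 37141666 to 83019079 counts in NO. Between 73.9% and 78.7% of the counts in CN and between 55.3% and 65.1% in NO fell on annotated rRNA genes. A member was covered by 506 to 3319 counts per CN library and by 237 to 2974 counts per NO library. Values are given below as CPM (counts per 1000000 counts) after scaling by TMM, a method that aligns libraries on the bulk of their genes, and adjusted p-values come from edgeR's quasi-likelihood test with Benjamini-Hochberg adjustment over all genes tested. The replicates of NO were further apart than those of CN, with TMM factors of 0.622 to 1.40 against 0.760 to 1.09, and the WT library 3 of NO carried the factor of 1.40. The HEK293 markers KRT8, KRT18, VIM, NEFL and NEFM were detected in every library, whereas CD3E and ALB had at most 26 counts in any library. PTPRC, PECAM1 and COL1A1, markers of other cell types, were also detected in every library and reached 178, 246 and 120 counts in NO. KRT18 had 41 to 154 counts in NO, so counts there did not set these 3 apart from it. In WT, PTPRC and PECAM1 were higher in NO than in CN (log2 differences 2.46 and 1.94, adjusted p = 0.00509 and 0.00676), and COL1A1 was not called (0.33). The keratins KRT8 and KRT18 were higher (log2 fold changes 2.30 ± 0.15 and 1.28 ± 0.20 SE; adjusted p = 3.39e-06 and 0.000545) and vimentin (VIM) was lower (-1.47 ± 0.12; adjusted p = 9.16e-06) in the CN fraction of the knockout line. NEFM was lower (-0.54; adjusted p = 0.0370), NEFL was not called (0.02) and COL1A1 was higher (0.75; adjusted p = 0.0137). The part of this difference between the lines in the results below was not tested.

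The members lie on 9 chromosomes in GRCh38.p14, with RefSeq gene spans as follows. The MRE11 complex is encoded at chr11:94415570-94512412 (MRE11), chr5:132556977-132646349 (RAD50) and chr8:89933331-89984667 (NBN). The nuclease cofactor RBBP8 is at chr18:22914139-23026486, and the factors of long-range resection are at chr15:90717346-90816166 (BLM), chr1:241847986-241889939 (EXO1) and chr10:68414064-68472521 (DNA2). The kinases are at chr11:108223067-108369102 (ATM) and chr3:142449235-142578733 (ATR), and BRCA1 is at chr17:43044295-43170327. Read counts are given per gene, so no isoform is separated here, and the study's methods do not say whether introns were counted.

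The target of the knockout was examined first. In CN, HNRNPUL1 had 17.76, 15.43 and 17.99 CPM in WT and 4.746, 4.798 and 4.862 CPM in KO. This was a log2 fold change of -1.83 ± 0.08 (SE; adjusted p = 2.12e-07). In NO, HNRNPUL1 had 15.2, 21.6 and 9.30 CPM in WT and 4.09, 3.86 and 3.57 CPM in KO, a log2 fold change of -2.00 ± 0.32 (SE; adjusted p = 0.00649). In each fraction all KO libraries lay below all WT libraries, as their labels say, and transcripts of the edited gene were reduced rather than lost.

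Levels per length were compared among members as CPM per kilobase of merged GENCODE exons, where exons of all annotated transcripts count. These levels take the counts to come from exons, and would change if introns were counted as well. In CN of WT, EXO1 had 6.74 ± 0.19 CPM per kb (SD, n = 3) and RBBP8 had 5.64 ± 0.27, above the remaining members. DNA2 (3.03 ± 0.16), BLM (2.84 ± 0.10), MRE11 (2.68 ± 0.15) and RAD50 (2.55 ± 0.05) followed, and each of these neighbours differed by about its spread or less. BRCA1 had 1.49 ± 0.04, ATR 1.01 ± 0.03, ATM 0.986 ± 0.027 and NBN 0.898 ± 0.050 CPM per kb, where ATR and ATM did not differ beyond their spread. The lower end of this order depends on the length used. The merged exons of NBN, ATM and ATR span 19.417, 39.184 and 27.234 kb because many rare transcripts are annotated, while their MANE Select transcripts (1 agreed reference transcript per gene) span 4.622, 12.915 and 8.158 kb. Per MANE Select length, RBBP8 came first with 8.74 ± 0.42 CPM per kb, then EXO1 with 8.08 ± 0.23 and BLM with 4.27 ± 0.15. NBN came next with 3.77 ± 0.21, and the other members lay between 2.97 and 3.49 CPM per kb. EXO1 and RBBP8 were the members with the highest levels per length in all 4 groups by either length.

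In CN, the knockout was compared with WT to ask how the RNAs of the resection machinery differ when hnRNP UL1 is missing. MRE11, NBN, RBBP8, EXO1, DNA2, ATM and ATR were lower in KO, whereas RAD50, BLM and BRCA1 did not pass the test. Thus 7 of 10 members were lower and none was higher, where 22.3% of the 27234 genes tested were lower. The members and the lists below were chosen with earlier results of these data known, so such shares describe them and are no test. The median log2 fold change of the members was -0.41, and that of all genes tested was 0.04. The members' values by library and genotype are shown in the plot of CPM.

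**Figure D1:**
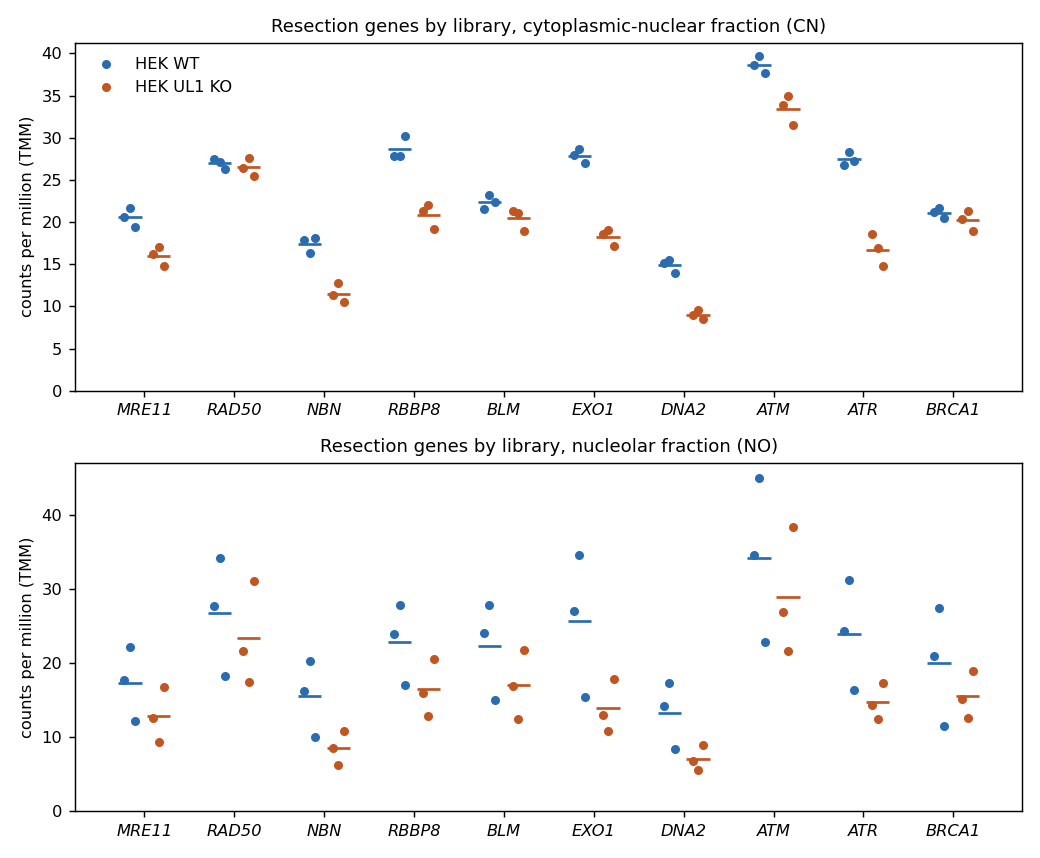
CPM (y axis, linear, TMM scaled) of each of the 10 members in each library of CN (top) and NO (bottom), with HEK WT in blue and HEK UL1 KO in orange; points are libraries in the order of replicates 1 to 3 and bars are means of 3. In CN the groups separate by the full spread for DNA2 and ATR and coincide for RAD50, whereas in NO the groups overlap for each member.

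Within the MRE11 complex, MRE11 and NBN were lower in KO and RAD50 was not called in CN. MRE11, the nuclease subunit, had 20.6, 21.7 and 19.4 CPM in WT and 16.2, 17.1 and 14.8 CPM in KO. All KO libraries lay below all WT libraries, and the log2 fold change was -0.36 ± 0.08 (SE; adjusted p = 0.00441). NBN, the subunit that recruits ATM, had 17.8, 16.3 and 18.2 CPM in WT and 11.3, 12.7 and 10.5 CPM in KO. The groups were again separate, with KO at 0.661 of the WT level (log2 fold change -0.60 ± 0.08; adjusted p = 0.000346). RAD50, the ATPase that holds the complex together, had 27.5, 27.1 and 26.3 CPM in WT and 26.4, 27.6 and 25.4 CPM in KO. Its groups overlapped, and the log2 fold change of -0.03 had a 95% interval from -0.18 to 0.12 (adjusted p = 0.781). 

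RBBP8, which starts resection, and the nucleases EXO1 and DNA2, which extend it, were lower, and BLM was not called. RBBP8 had 27.8, 27.9 and 30.2 CPM in WT and 21.3, 22.0 and 19.1 CPM in KO. It reached 0.728 of the WT level (log2 fold change -0.46 ± 0.08; adjusted p = 0.00109). EXO1, a 5' to 3' exonuclease, had 27.98, 28.62 and 27.04 CPM in WT and 18.6, 19.0 and 17.2 CPM in KO. It reached 0.655 of the WT level, with narrow spread in both groups (log2 fold change -0.61 ± 0.07; adjusted p = 9.18e-05). DNA2, the nuclease and helicase that cuts RPA-coated flaps, had 15.18, 15.52 and 14.002 CPM in WT and 8.93, 9.54 and 8.54 CPM in KO. It had the lowest log2 fold change of the 10 members, followed within its error by ATR, and reached 0.605 of the WT level (log2 fold change -0.73 ± 0.08; adjusted p = 5.01e-05). BLM, the helicase that works with DNA2, had 21.6, 23.2 and 22.4 CPM in WT and 21.3, 21.1 and 19.0 CPM in KO. All KO values of BLM were below all WT values, but the log2 fold change of -0.13 (95% interval -0.29 to 0.03) did not pass the test (adjusted p = 0.187).

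Of the kinases, ATR fell and ATM was at the edge of the test. ATR had 26.7, 28.4 and 27.2 CPM in WT and 18.5, 16.9 and 14.8 CPM in KO. It reached 0.611 of the WT level (log2 fold change -0.71 ± 0.09; adjusted p = 0.000136). ATM had 38.6, 39.7 and 37.6 CPM in WT and 33.9, 34.9 and 31.5 CPM in KO. The groups of ATM were separate, but the log2 fold change of -0.21 ± 0.07 was small (adjusted p = 0.0414), and the call was lost when any 1 of the 6 CN libraries was left out (adjusted p from 0.0806 to 0.161). BRCA1 had 21.2, 21.6 and 20.4 CPM in WT and 20.3, 21.3 and 19.0 CPM in KO. These overlapped, and the log2 fold change was -0.06 (95% interval -0.22 to 0.10; adjusted p = 0.526). For each single member, the exact permutation test of 3 against 3 libraries cannot give a two-sided p below 0.10, and it gave 0.10 for the 8 members with separate groups, 0.40 for BRCA1 and 0.70 for RAD50. Over all genes tested in CN, 28.1% were lower in KO without overlap in CPM.

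The size of these falls depends on how libraries are aligned. When libraries were scaled by their total counts instead, only DNA2 and ATR passed the test, where 6.33% of all genes tested were lower and 13.6% higher, against 22.3% and 15.6% with TMM. RAD50, BLM and BRCA1 then turned positive (0.17, 0.07 and 0.14), and the median over all genes moved from 0.04 to 0.24. Relative to the median gene, the members' median was -0.45 under both scalings. In the fit of all 12 libraries DNA2 and ATR were again the only members to pass, where 6.41% of all genes tested were lower. The members' median was -0.49 in that fit, against -0.41 in the fit of CN alone.

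**Figure D2:**
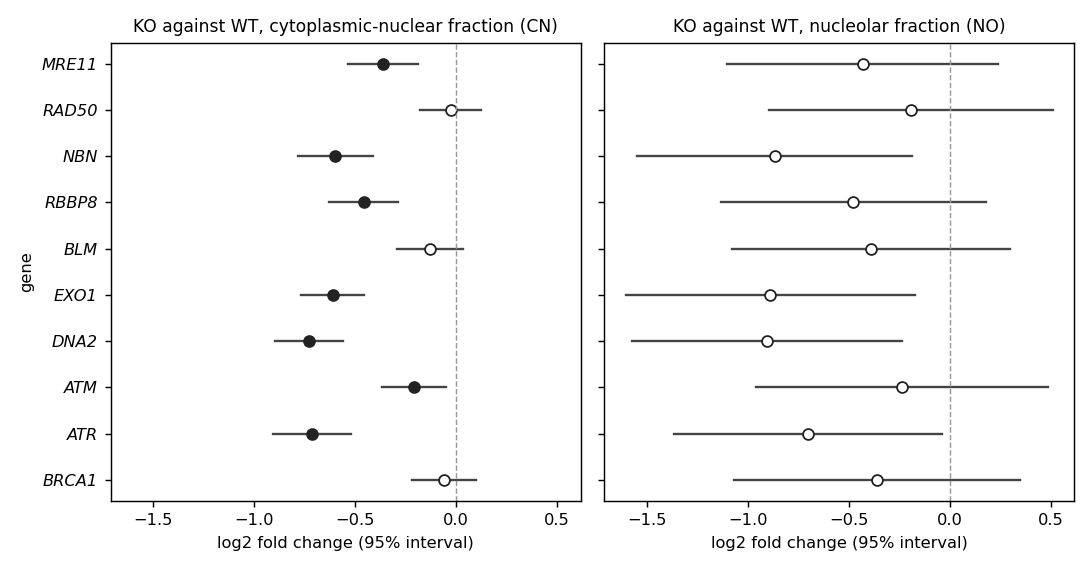
Log2 fold change of KO against WT for each member in CN (left) and NO (right), with the 95% interval from the edgeR fit; filled circles have an adjusted p under 0.05 and open circles do not. In CN, DNA2, ATR, EXO1 and NBN lie from -0.73 to -0.60 while RAD50 and BRCA1 lie near 0. In NO all 10 points lie below 0 with wide intervals, and 6 of them turn positive when libraries are scaled by total counts. That scaling moves the median of all genes from 0.00 to 0.40 and the members' median from -0.45 to 0.07. Relative to the median gene, the members' median is -0.46 with TMM and -0.33 with total counts.

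In NO, the same contrast asks whether the nucleolar fraction differs in these RNAs. None of the 10 members passed the test, where 0.939% of the 34836 genes tested passed in either direction. DESeq2 likewise called 0 of 10, where 1.84% of the 58785 genes tested were called. All 10 log2 fold changes were negative, from -0.90 to -0.19 with standard errors of 0.31 to 0.34, although 6 of them turned positive under total counts. That scaling moved the median of all genes from 0.00 to 0.40, and relative to the median gene the members' median was -0.46 with TMM and -0.33 with total counts. At an unadjusted p under 0.05, 4 members (NBN, EXO1, DNA2 and ATR) were lower, against 9.81% of all genes tested. With total counts or with the replicate block no member reached that p. The exact permutation test gave p of 0.20 or more for each of the 10 members, and the CPM of each overlapped between genotypes, where 9.17% of all genes tested were lower in KO without overlap.

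Libraries of both genotypes stood apart in NO. With TMM scaling, WT library 3 was the lowest and WT library 2 the highest of the WT libraries for every member. KO library 2 was the lowest and KO library 3 the highest of the KO libraries. The order in WT depends on this scaling, where WT libraries 1 to 3 had TMM factors of 0.690, 0.622 and 1.40. Scaled by total counts, the members together had 159, 179 and 204 CPM in these libraries. WT library 3 was then the highest. In KO libraries 1 to 3 the members together had 202, 132 and 232 CPM, the same order as with TMM. NBN had 16.2, 20.2 and 10.0 CPM in WT and 8.46, 6.19 and 10.8 CPM in KO (log2 fold change -0.87 ± 0.32; adjusted p = 0.204). EXO1 had 27.0, 34.6 and 15.4 CPM in WT and 12.97, 10.83 and 17.83 CPM in KO (log2 fold change -0.89 ± 0.34; adjusted p = 0.212). In both genes WT library 3 lay within the range of KO. DNA2 had 14.2, 17.3 and 8.33 CPM in WT and 6.76, 5.58 and 8.91 CPM in KO (log2 fold change -0.90 ± 0.32; adjusted p = 0.179). ATR had 24.3, 31.2 and 16.3 CPM in WT and 14.3, 12.4 and 17.3 CPM in KO (log2 fold change -0.70 ± 0.31; adjusted p = 0.284). RAD50 had 27.7, 34.2 and 18.2 CPM in WT and 21.7, 17.4 and 31.1 CPM in KO, with the smallest difference of the members (log2 fold change -0.19 ± 0.33; adjusted p = 0.788). Without WT library 3, NBN, EXO1, DNA2 and ATR passed the test, where 15.3% of all genes tested were then lower, against 0.574% with all libraries, and the median of the members moved from -0.45 to -0.66. Without WT library 2 or KO library 2 the median was -0.24 in each case, and none of the 10 had even an unadjusted p under 0.05. Without KO library 3 it was -0.69 and without WT library 1 or KO library 1 it was -0.39 or -0.43, with no member called. The remaining members (MRE11, RBBP8, BLM, ATM and BRCA1) had log2 fold changes between -0.48 and -0.24 in NO with all libraries. In these bulk libraries, fewer cells or nucleoli and less RNA in each cannot be told apart.

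A test of whether the effect of the knockout differed between fractions (the interaction of genotype and fraction over all 12 libraries) called none of the 10 members, where 0.114% of the 37806 genes tested were called. None had an unadjusted p under 0.05, and DESeq2 also called 0, where 0.133% of all genes tested were called. The interaction terms ranged from -0.13 to 0.17 with standard errors of 0.31 to 0.35, so differences between fractions as large as those standard errors were not detectable.

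The members were also compared with each other inside each library, which needs no scaling between libraries. The share of a gene in the summed counts of the 10 members was taken, a measure added after the scaled values had been seen. A share must fall when others rise, so it shows unequal change among the members and not which of them changed. RAD50 took 11.21%, 10.85% and 10.85% of the members' counts in the WT libraries of CN and 13.41%, 13.66% and 14.15% in the KO libraries. The rise in the share of RAD50 was seen in NO as well, from 12.02%, 11.88% and 12.41% in WT to 14.3%, 14.4% and 15.4% in KO. In CN, 5 members (NBN, RBBP8, EXO1, DNA2 and ATR) had a lower share in every KO library than in any WT library, where 11.3% of all genes tested had a lower ratio to this sum without overlap. RAD50, BLM, ATM and BRCA1 had higher shares without overlap, where 46.3% of all genes tested had a higher ratio to the sum without overlap, and the shares of MRE11 overlapped.

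In NO, 4 members (NBN, EXO1, DNA2 and ATR) had lower shares without overlap, against 3.91% of all genes tested, and RAD50 and ATM had higher ones, against 13.1%. The shares of MRE11, RBBP8, BLM and BRCA1 overlapped in NO, as did the CPM of all 10 members. EXO1 fell from 11.72%, 12.03% and 10.52% to 8.57%, 8.93% and 8.82% of the members' counts in NO, and in CN from 11.4%, 11.4% and 11.1% to 9.43%, 9.41% and 9.54%. DNA2 fell from a mean share of 6.06% ± 0.25 to 4.67% ± 0.11 (SD, n = 3) in CN and from 5.95% ± 0.24 to 4.49% ± 0.10 in NO. ATR fell from 11.2% ± 0.2 to 8.67% ± 0.66 in CN and from 10.8% ± 0.3 to 9.42% ± 0.85 in NO. The exact permutation p was 0.10, the smallest possible, for each share without overlap.

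**Figure D3:**
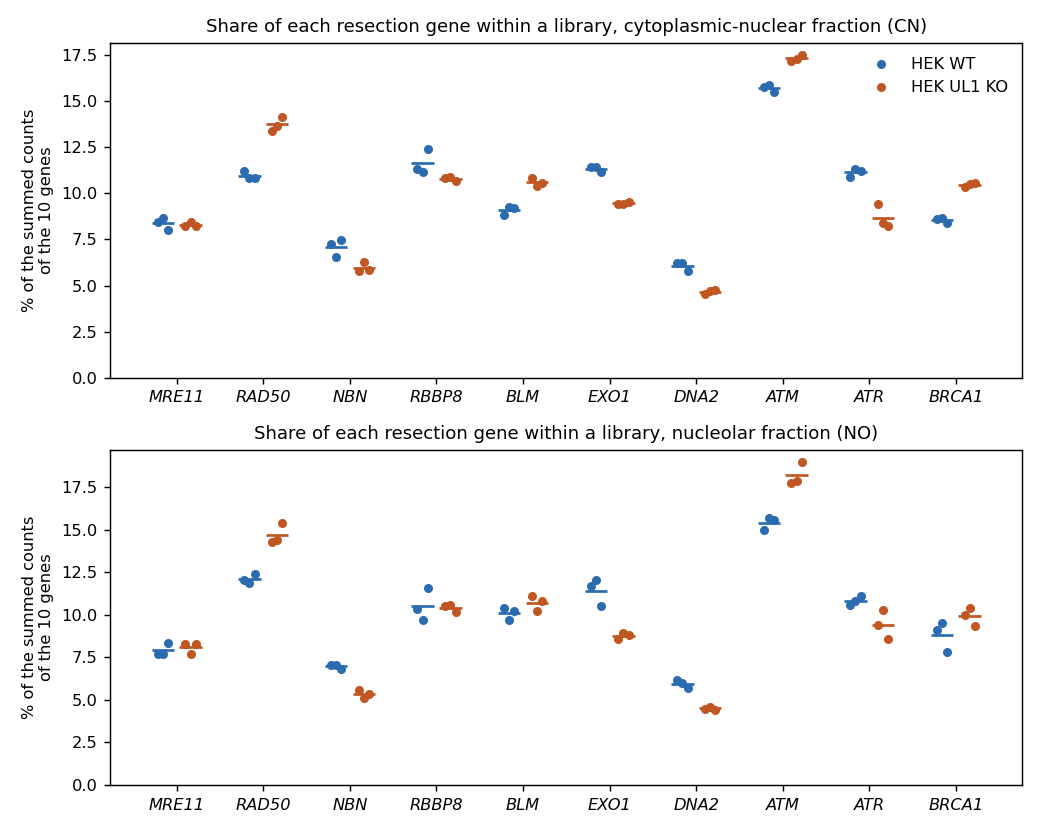
Share of each member in the summed counts of the 10 members within a library (y axis, percent), in CN (top) and NO (bottom), with HEK WT in blue and HEK UL1 KO in orange; points are libraries in the order of replicates 1 to 3 and bars are means of 3. The mean share of RAD50 rises from 10.97% to 13.74% in CN and from 12.1% to 14.7% in NO, while those of EXO1, DNA2 and NBN fall in both fractions.

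The same question was put to edgeR with the summed counts of the members as the library size. In CN, NBN, EXO1, DNA2 and ATR were lower and RAD50, BLM and BRCA1 higher against the sum, which made 7 of 10 called where 43.6% of all genes tested were called. RAD50 stood highest with a log2 difference of 0.32 ± 0.06 (SE; adjusted p = 0.00244), and DNA2 lowest with -0.38 ± 0.07 (adjusted p = 0.00172). NBN and BLM lost the call without WT library 1 or KO library 1, and NBN also without KO library 3 and with DESeq2 (adjusted p = 0.0542). In NO none of the 10 was called, where 0.066% of all genes tested were called. NBN, EXO1 and DNA2 had log2 differences of -0.38, -0.38 and -0.41 against the sum in NO, with unadjusted p of 0.0301, 0.0283 and 0.0256 and adjusted p of 0.443, 0.435 and 0.424, and DESeq2 called 0 of 10. The sign of the difference from the sum was the same in CN and NO for 9 of 10 members.

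The proportions of the MRE11 complex transcripts were read as ratios to RAD50, a reference chosen after its values had been seen. RAD50 had the highest log2 fold change of the 10 members in both fractions, so this choice itself favours lower ratios in KO, and the ratios describe the proportions only. In CN, the MRE11 count was 0.763 ± 0.033 (SD, n = 3) of the RAD50 count in WT and 0.604 ± 0.020 in KO. The NBN count was 0.647 ± 0.043 of the RAD50 count in WT and 0.434 ± 0.024 in KO. Both ratios were lower in every KO library than in any WT library. In NO, the ratio of MRE11 to RAD50 went from 0.652 ± 0.016 to 0.550 ± 0.026 and that of NBN to RAD50 from 0.576 ± 0.022 to 0.365 ± 0.023, again without overlap. Of the 9 members other than RAD50, 7 in CN and 8 in NO had a lower ratio to RAD50 without overlap, against 26.2% and 9.54% of all genes tested. The exceptions were BLM and BRCA1 in CN and BRCA1 in NO. The annotation has a read-through gene that shares 91.0% of the MANE Select exon bases of RAD50 and is not a row of the tables under that name, so reads of these transcripts are not separated here.

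The fractions were compared within each genotype to ask where these RNAs were recovered. All 10 members were lower in NO than in CN in WT, where 20.9% of the 29340 genes tested were lower, with log2 differences from -0.81 (RBBP8) to -0.50 (BLM). All 10 were also lower in NO in KO, where 35.6% of the 34468 genes tested were lower, with differences from -1.05 (NBN) to -0.79 (RAD50). Lower calls in NO were not particular to the members. In the lists described below, 12 of 15 cofactors, 7 of 11 antagonists, 8 of 16 checkpoint and 6 of 11 strand exchange genes were lower in WT. So were 4 of 10 end joining genes, 2 of 7 hnRNP UL1 partners and 7 of 23 genes of S and G2 phases. In KO these counts were 14, 9, 16, 11, 8 (of 9 tested), 7 and 23, in that order. MRE11 had 12.8 ± 2.1 CPM in NO and 21.4 ± 0.7 CPM in CN of WT (SD, n = 3; log2 difference -0.74 ± 0.16 SE; adjusted p = 0.00616). ATR had 13.5 ± 2.2 CPM in NO and 23.4 ± 3.1 CPM in CN of KO (log2 difference -0.80 ± 0.17; adjusted p = 0.00153). CPM in these comparisons were scaled over the NO and CN libraries together and differ from those within a fraction. The members remained detected in NO, with the lowest value of any member in any library at 237 counts. NO libraries held a smaller share of rRNA than CN libraries, as given above, and its part in these differences was not tested. With scaling by total counts none of the 10 passed in either genotype although all 10 stayed negative. Of all genes tested, 2.07% in WT and 2.39% in KO were lower with that scaling. The median of all genes then moved from 0.02 to 0.37 in WT and from 0.03 to 0.79 in KO. Relative to it the members' median went from -0.69 to -0.74 in WT and was -0.97 under both scalings in KO. Other settings moved this relative median further in WT, to -1.72 with DESeq2, -1.69 with no filter and -1.17 in the fit of all 12 libraries. With at least 10 counts in every library it was -0.45. In WT, RAD50, BLM, EXO1 and BRCA1 also lost the call under several alternatives, which left 6 of 10. These were TMM without rRNA genes, at least 10 counts in every library, the replicate block and leaving out NO library 1 or any of the 3 CN libraries. Of all genes tested, 16.8%, 17.5%, 13.1% and 14.2% to 16.3% were then lower, in that order. The members' median was -0.59 without rRNA genes, -0.44 with that filter and -0.69 with the block, against -0.67 with the main settings. In KO, RAD50, BLM, ATM and ATR lost the call with at least 10 counts in every library, which also left 6 of 10. Of the 23719 genes tested with that filter in KO, 22% were lower.

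**Figure D4:**
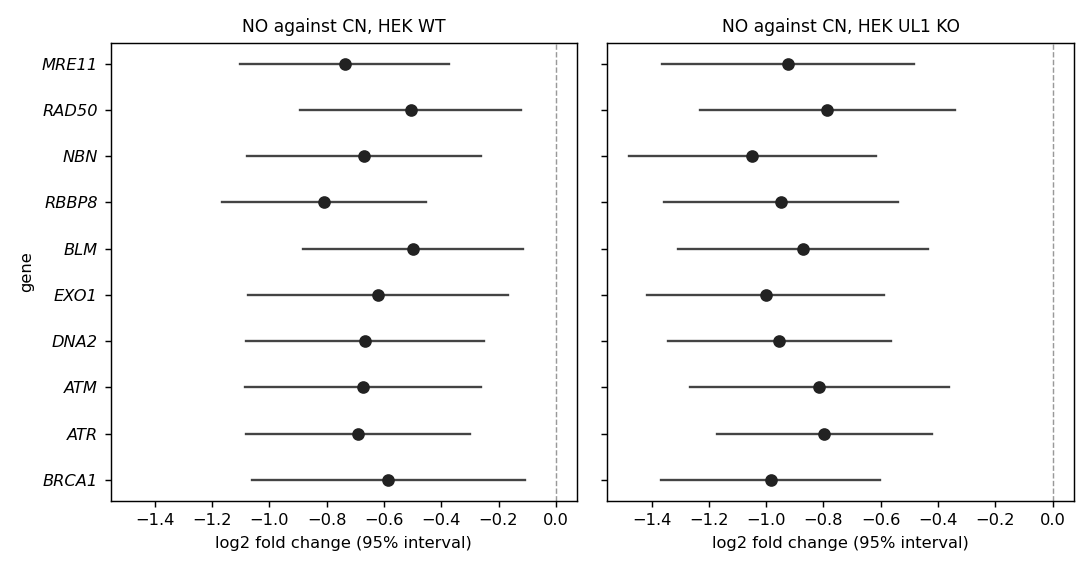
Log2 difference between NO and CN for each member in HEK WT (left) and HEK UL1 KO (right), with the 95% interval from the edgeR fit. All 10 members lie below 0 in both genotypes, from -0.81 to -0.50 in WT and from -1.05 to -0.79 in KO. They stay below 0 with scaling by total counts, where none passes the test. Of all genes tested, 2.07% in WT and 2.39% in KO are lower with that scaling.

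The genes that start on the opposite strand within 1 kb of a member were read next, since such a pair shares its upstream region. Of the 7 such neighbours, 5 had a row in the tables. ANKRD49, 135 bases from the start of MRE11, had a log2 fold change of -0.36 ± 0.14 in CN (adjusted p = 0.0611), close to the -0.36 of MRE11. NPAT, a histone gene coactivator that starts 429 bases from ATM, fell by 0.29 on the log2 scale (SE 0.08; adjusted p = 0.0181), beside the fall by 0.21 of ATM. The noncoding neighbours of BLM and BRCA1, which were not called themselves, rose in CN. CRTC3-AS1, 205 bases from the start of BLM, had a log2 fold change of 0.77 ± 0.14 (adjusted p = 0.00132), and NBR2, 187 bases from BRCA1, had 0.72 ± 0.10 (adjusted p = 0.000235). IL5, next to RAD50, had 2 to 35 counts per library and was not called in CN (adjusted p = 0.912). None of these 5 neighbours passed the test in NO (adjusted p from 0.389 to 0.750), and the call of NPAT in CN was lost with total counts, in the fit of all 12 libraries and without WT library 1, WT library 2 or KO library 3 (adjusted p from 0.0538 to 0.0797). ANKRD49 passed without WT library 3 (adjusted p = 0.0305), and the call of NBR2 was lost in the fit of all 12 libraries.

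Overlap with other genes on the exons of members was small among genes with a row in the tables. C11orf65 shares 114 bases with the MANE Select exons of ATM (0.883% of them) and had 2315 counts over the 12 libraries. OSGIN2 overlaps 827 bases of exons of rare NBN transcripts and none of the MANE Select exons. Pseudogene rows named after members (MRE11P1, RBBP8P1, RBBP8P2 and BRCA1P1) had at most 26 counts in any library.

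Lists of genes that act with or after resection were described in CN, where 22.3% of all genes tested were lower and 15.6% were higher, with a median log2 fold change of 0.04. Of 15 resection cofactors, 6 were lower and 1 was higher, with a median log2 fold change of -0.28. RPA2, which encodes the 32 kDa subunit of the RPA complex that coats resected DNA, had 10.1 ± 0.2 CPM in WT and 4.81 ± 0.04 CPM in KO (SD, n = 3; log2 fold change -1.07 ± 0.07 SE; adjusted p = 3.59e-06). The higher gene was TOP3A, the topoisomerase partner of BLM, with 0.27 (adjusted p = 0.0351), and DESeq2 called no cofactor higher. RMI1, a partner of BLM in the dissolvasome, had a log2 fold change of -0.65 (adjusted p = 0.00138). CCNA2 (cyclin A2) and CDK1, whose kinase activity licenses resection in S and G2 phases, had -0.72 and -0.64 (adjusted p = 5.01e-05 and 0.000272). Of 11 antagonists of resection, 6 were lower and none was higher, with a median of -0.30. MAD2L2 and TP53BP1 had log2 fold changes of 0.47 and 0.25 and missed the test (adjusted p = 0.0503 and 0.0540), and 1 or 2 antagonists were called higher with total counts, with at least 10 counts in every library and without WT library 3 or KO library 2. SHLD3 and SHLD2, subunits of the shieldin complex that protects ends, had log2 fold changes of -0.81 and -0.65 (adjusted p = 0.00134 and 0.000125), and the helicase HELB had -0.60 (adjusted p = 0.00193). DYNLL1, an inhibitor of MRE11, had -0.32 (adjusted p = 0.0315). Genes that favour resection and genes that limit it were thus both among those that fell.

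Of 16 genes of checkpoint signalling, 5 were lower and 1 was higher, beside 22.3% lower and 15.6% higher over all genes tested, with a median of -0.22. MDC1, the adaptor that binds phosphorylated H2AX and holds the MRE11 complex at damaged chromatin, rose from 7.33 ± 1.23 to 12.8 ± 1.0 CPM (SD, n = 3; log2 fold change 0.80 ± 0.12 SE; adjusted p = 0.000393). CHEK2, RAD17 and TOPBP1, the last of which activates ATR, had log2 fold changes of -0.53, -0.52 and -0.47 (adjusted p = 0.00203, 0.00837 and 0.000486). Of 11 genes of strand exchange, 4 were lower and 1 was higher, with a median of -0.02. The largest called change of this list was -0.52 (adjusted p = 0.00124), in a gene not named here. Of those named here, RAD54B and BRCA2 had -0.40 and -0.37 (adjusted p = 0.00158 and 0.00272), and RAD52 had 0.28 (adjusted p = 0.0280), or 0.22 with DESeq2 (adjusted p = 0.256).

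Of 10 genes of end joining, the pathway that competes with resection, 5 were lower and 1 was higher, beside the same 22.3% and 15.6%, with a median of -0.28. LIG4, the ligase that seals the ends, rose from 1.74 ± 0.26 to 3.62 ± 0.27 CPM (SD, n = 3; log2 fold change 1.06 ± 0.13 SE; adjusted p = 0.000157). NHEJ1, DCLRE1C (Artemis) and XRCC4, a partner of LIG4, had -0.65, -0.59 and -0.38 (adjusted p = 0.00101, 0.000463 and 0.00296). LIG4 and XRCC4, which work as a complex, thus moved in opposite directions. Of 7 partners of hnRNP UL1 in repair, 4 were lower and none was higher, with a median of -0.42. UIMC1 (RAP80), which brings BRCA1 complexes to ubiquitin marks, had 18.7 ± 0.6 CPM in WT and 10.2 ± 0.1 CPM in KO (log2 fold change -0.87 ± 0.07 SE; adjusted p = 6.46e-06). XRCC1, PARP1 and PRMT1 had -0.63, -0.59 and -0.42 (adjusted p = 0.0242, 0.000481 and 0.0490). HNRNPUL2, the paralogue of the deleted gene, had 6.23 ± 0.19 CPM in WT and 6.53 ± 0.38 CPM in KO (log2 fold change 0.07 ± 0.08; adjusted p = 0.526).

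**Figure D5:**
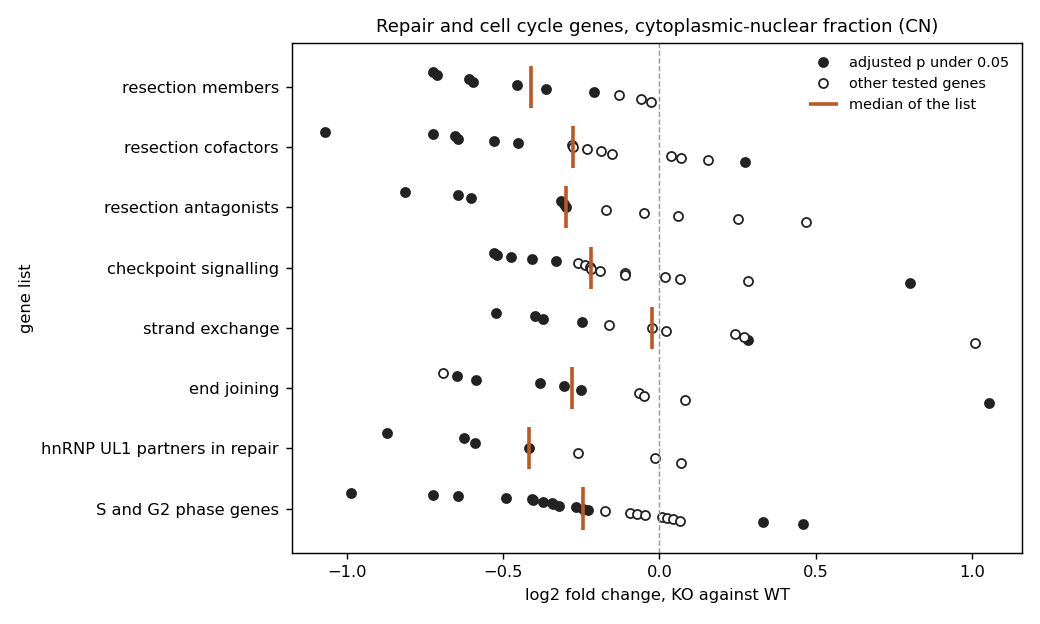
Log2 fold change of KO against WT in CN for each tested gene of the members and of 7 lists of repair and cell cycle genes; filled circles have an adjusted p under 0.05, open circles do not, and orange bars are medians. The members' median is -0.41 and that of the partners of hnRNP UL1 is -0.42, among the called genes LIG4 (1.06) and MDC1 (0.80) stand furthest to the right, and RPA2 (-1.07) is the lowest gene.

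Resection is active in S and G2 phases, and a list named for genes of these phases was read next. It also holds genes that act from late G1 into S phase, such as CCNE1, CCNE2, E2F1, CDT1 and CDC6, so it does not separate the phases. Of its 23 genes, 13 were lower and 2 were higher in CN, beside 22.3% of all genes lower and 15.6% higher, and the median was -0.25. CCNB1 (cyclin B1) had 18.8 ± 0.7 CPM in WT and 9.46 ± 0.55 CPM in KO (log2 fold change -0.99 ± 0.07 SE; adjusted p = 5.54e-06), and CCNE1 (cyclin E1) had -0.49 (adjusted p = 0.0465; 0.0672 with DESeq2). The 2 higher genes were MCM3 and CDC6, which license replication origins, with 0.46 and 0.33 (adjusted p = 0.000363 and 0.00573). The part of cell cycle state in the members' values was not tested. Across these lists the calls depended on scaling, since with total counts the lower calls in CN came to 2 cofactors, 1 partner of hnRNP UL1 and 2 genes of S and G2 phases, with none in the other 4 lists, beside 6.33% of all genes lower. Higher calls with total counts were 1 cofactor, 2 antagonists, 1 gene each of checkpoint signalling, strand exchange and end joining and 2 genes of S and G2 phases, beside 13.6% of all genes higher. RPA2, CCNA2, CCNB1, UIMC1, MDC1 and LIG4 passed in the same direction under all 13 alternatives. CCNE1, DYNLL1 and PRMT1 each lost the call without any of 5 of the 6 CN libraries, RAD52 without WT library 1 or KO library 1 or 2, and XRCC1 without WT library 2 or 3 or KO library 2. TOP3A lost it without WT library 1 or 2 or KO library 1 or 2. In NO no gene of these lists passed edgeR's test with the main settings. DESeq2 called 1 cofactor, 2 partners of hnRNP UL1 and 1 gene of S and G2 phases lower, where a gene can be in more than 1 list and 1.4% of all genes tested were lower. Of the 13 alternatives, 5 gave lower calls in NO for strand exchange and 4 each for cofactors and for genes of S and G2 phases. For partners 3 did, for checkpoint signalling 2, and for antagonists and end joining 1 each. Up to 15.3% of all genes were lower in these alternatives (without WT library 3). At an unadjusted p under 0.05 in NO, 4 of 15 cofactors, 1 of 11 antagonists, 5 of 16 checkpoint genes, 1 of 11 genes of strand exchange, 1 of 10 of end joining, 4 of 7 partners of hnRNP UL1 and 7 of 23 genes of S and G2 phases were lower, beside 9.81% of all genes. Of these lists, 1 gene of end joining was higher, beside 6.19% of all genes.

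The protein-coding genes whose levels followed the MRE11 complex most closely over the 12 libraries were ORC2, CDCA7, MARCHF7, PPP1R12A and SUV39H2. Their Pearson r with the mean standardised log2 CPM of MRE11, RAD50 and NBN was 0.997 to 0.998, and the median r over the 14793 genes ranked was 0.733. These points share libraries and scaling, and the part of the fractions in these correlations was not tested. In CN the 5 genes had log2 fold changes from -0.43 to -0.34. Among the other members, BLM came nearest with r of 0.991 (rank 162) and ATR last with r of 0.948 (rank 2725).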

How the data were processed

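Per the labels and the study's methods, the deposited values are raw read counts per gene for 12 libraries in 4 groups of 3. The authors trimmed reads with cutadapt 3.7, aligned them with STAR 2.7.8 to hg38 and counted them with featureCounts, whose strand setting and annotation release are not given in the sources used here. The study's methods do not name the feature type counted either. Counts on annotated rRNA genes were kept in the library sizes. The members and lists were chosen with earlier results of these data known.

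Counts were tested with edgeR 4.0.16 in R 4.3.3 (TMM scaling, filterByExpr, quasi-likelihood test, Benjamini-Hochberg adjustment over all genes tested, threshold 0.05), with 2 groups per fit and all 12 libraries for the interaction. For single values, exact permutation tests (two-sided) were run. DESeq2 1.42.0, total counts, TMM without rRNA genes, 2 other filters, a replicate block, a fit of all libraries and each library left out were alternatives. Named genes were the target, the members, up to 4 genes per list with the largest change in CN among those passing, divergent neighbours within 1 kb and the 5 genes most like the MRE11 complex, with markers and other genes given as context chosen after their values were seen. As an exception to this rule, the gene of strand exchange with the largest called change is given by its value and not named. Same-numbered libraries did not deviate together, with correlations of -0.48 to -0.04. No libraries of a group agreed within sampling noise (chi-square per gene of at least 17.1). Lengths came from GENCODE 44 and positions from RefSeq on GRCh38.p14. The procedure was tested on simulated counts.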

Additional observations from a re-analysis of the deposited data

How the results depend on the processing

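The main limits are the 3 libraries per group, the spread of the nucleolar libraries and the choice of scaling. In CN, 6 members (MRE11, NBN, RBBP8, EXO1, DNA2 and ATR) passed with every library left out in turn (6 calls each time). Of all genes tested, 15.8% to 19.9% were then lower. With total counts 2 passed, where 6.33% of all genes were lower. In the fit of all 12 libraries 2 passed, where 6.41% were lower (DNA2 and ATR in both). The members' median in that fit was -0.49, against -0.41 in the main fit. In NO, leaving out 1 library gave 0 to 4 calls, with 4 only without WT library 3, where 25.1% of all genes tested were called in either direction. NO against CN in WT gave 0 calls with total counts, 6 with TMM without rRNA genes and 6 with at least 10 counts in every library. It gave 6 to 10 when 1 library was left out (6 without WT library 1 of NO or any of the 3 WT libraries of CN). Of all genes tested, 2.07%, 16.8%, 17.5% and 14.2% to 26.4% were lower, in that order. In KO, NO against CN gave 0 calls with total counts and 6 with at least 10 counts in every library, where 2.39% and 22% of all genes were lower. The fall of HNRNPUL1 in NO was -1.42 and no longer passed with total counts. The cause of these changes was not tested.

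The numbers were not taken to pair the libraries, since same-numbered libraries did not deviate together (correlations of -0.48 to -0.04). With the replicate block, 6 members passed in CN (ATM did not), where 20% of all genes tested were lower. In NO against CN in WT 6 passed, where 13.1% were lower. The block ended the calls of RAD52 and CCNE1 in CN. It gave 0 calls in NO, where 0.646% of all genes were called in either direction. In NO against CN in KO it gave 10, where 32.6% were lower. Both counts were the same without it.

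Log2 fold changes that turned positive were of members that had not passed. With total counts they were RAD50 0.172, BLM 0.0711 and BRCA1 0.137 in CN, and MRE11 0.10, RAD50 0.345, RBBP8 0.0353, BLM 0.155, ATM 0.306 and BRCA1 0.227 in NO. With at least 10 counts in every library, RAD50 had 0.0519 and BRCA1 0.0177 in CN. With 1 library left out in turn, RAD50 ranged from -0.0470 to 0.0177 in CN and from -0.468 to 0.0501 in NO, and ATM from -0.512 to 0.0361 in NO. Against the members' sum, MRE11 ranged from -0.0445 to 0.0135 in CN and RBBP8 from -0.0725 to 0.0583 in NO. Against the members' sum, 5 to 7 members passed in CN over 10 alternatives and 0 in NO. The interaction gave 0 calls under each of its 18 alternatives, where at most 0.175% of all genes tested were called.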
